A study of Homo sapiens with 34 samples.

Results

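The septins are a family of GTP-binding proteins that assemble into rods, filaments and rings, and 9 of their genes were examined in 3 human B-cell precursor acute lymphoblastic leukemia (B-ALL) cell lines. The members were chosen by NCBI gene identifier, *SEPTIN1* (1731), *SEPTIN2* (4735), *SEPTIN5* (5413), *SEPTIN6* (23157), *SEPTIN7* (989), *SEPTIN8* (23176), *SEPTIN9* (10801), *SEPTIN10* (151011) and *SEPTIN11* (55752). They make up 9 of the 17587 genes listed in any of the 6 tables, and 8 of them are among the 13307 genes listed in all 6. *SEPTIN10* was listed in 2 tables only. The family was selected on the group levels and log2 ratios of these same tables, so all its values below are a description and none was tested.

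Septins build mixed complexes in which one protein of each subgroup takes a set place, and *SEPTIN7* is the sole member of its subgroup. The *SEPTIN2* subgroup holds *SEPTIN1*, *SEPTIN2*, *SEPTIN4* and *SEPTIN5*, the *SEPTIN6* subgroup holds *SEPTIN6*, *SEPTIN8*, *SEPTIN10*, *SEPTIN11* and *SEPTIN14*, and the *SEPTIN3* subgroup holds *SEPTIN3*, *SEPTIN9* and *SEPTIN12*. Septin filaments line the contractile ring and the bridge between dividing cells, and in lymphocytes they stiffen the cell cortex. Several septin genes, among them *SEPTIN2*, *SEPTIN5*, *SEPTIN6*, *SEPTIN9* and *SEPTIN11*, are known fusion partners of MLL in leukemia.

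The lines were NALM-6, which carries ETV6-PDGFRB, RS4;11, which carries MLL-AF4, and BV-173, which carries BCR-ABL. Each line was transduced with a lentiviral vector encoding TagRFP and either an shRNA against *CCND3*, the gene of cyclin D3, or a scrambled shRNA, and RFP-positive cells were taken on day 4. Separately, each line received 1 µM palbociclib, an inhibitor of CDK4 and CDK6, or DMSO for 3 days. These are 12 groups with 34 samples in all, 3 samples in 10 groups and 2 samples in the other 2, which are the NALM-6 cells with *CCND3* shRNA and the BV-173 cells given DMSO. Nothing in the labels says whether samples of a group came from separate cultures, and 1 shRNA sequence stands for the knockdown in these libraries.

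Each table holds 1 level per gene and group, a normalized expression value in arbitrary units that pools the samples of the group. No SD between samples, depth per sample or test can be had from such values. The treated level was therefore divided by the control level of the same table, and a difference of at least 1.5-fold (0.58 on the log2 scale) was called higher or lower. Where 3 values stand together with no line named, they follow the order NALM-6, RS4;11, BV-173. Means over the 3 lines are given with the SD over lines. The smallest two-sided exact sign-flip p that 3 lines allow is 0.25, so no test over lines was run.

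Facts that hold for whole groups were as follows. The summed level of a group, in units of 1000000, was 17.8 to 20.8, and the median log2 ratio of all genes lay between −0.01 and 0.06. *CCND3*, the target of the shRNA, had log2 ratios of −2.04, −2.27 and −1.68 with knockdown and of −0.36, −0.29 and −0.40 with palbociclib. All 9 B-lineage markers were listed in every table, at a sum of 2715 to 5722 once the group was scaled to a sum of 1000000, a scale called the scaled level from here on. Of the markers of other cell types *CD8A*, *EPCAM* and *COL3A1* had a level of at most 0.178, 0.17 and 0.349 where they were listed, and *PF4* was listed in no table. Of 6 T and NK cell markers 3 to 6 were listed, at summed scaled levels of 4.58 to 97.6 that were mostly *NKG7*. The 5 myeloid markers summed to 4.85 to 29.4, 2 to 4 of 5 erythroid and megakaryocyte markers to 1.58 to 27, and 2 to 4 of 4 epithelial and stromal markers to 0.595 to 12.1, with *GP9* and *COL1A1* as their most abundant genes in RS4;11. Some of these sums shifted with treatment. With knockdown the T and NK cell sum went from 74.9 to 97.6 in RS4;11, from 29.3 to 41 in BV-173 and from 9.56 to 6.58 in NALM-6. In RS4;11 with knockdown the erythroid and megakaryocyte sum went from 13.1 to 27 and the epithelial and stromal sum from 6.48 to 12.1, and in BV-173 the latter went from 1.01 to 0.595. The myeloid sum in NALM-6 went from 4.85 to 7.03 with knockdown and from 5.13 to 9.59 with palbociclib. In BV-173 with palbociclib the myeloid sum went from 10.4 to 27.7, the erythroid and megakaryocyte sum from 3.74 to 1.58 and the epithelial and stromal sum from 1.28 to 0.727. The part of these shifts in the septin values below was not tested.

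The control groups show which septins these leukemia cells express. To compare genes, each scaled level was divided by the deposited transcript length in kilobases. *SEPTIN9*, a septin that acts late in cell division when the daughter cells separate, was the highest in every line, with scaled levels per kilobase of 161, 178 and 187 in the DMSO groups. *SEPTIN2*, which sits at the ends of septin rods, followed at 88.5, 56.1 and 101. *SEPTIN6* stood at 78.3, 81.9 and 42. *SEPTIN7* had 50, 26.2 and 48.1, and *SEPTIN11* had 33.7, 44.9 and 14.4 per kilobase. *SEPTIN2* was above *SEPTIN6* in NALM-6 and BV-173 and below it in RS4;11. *SEPTIN11* was above *SEPTIN7* in RS4;11 and below it in the other two lines. With no spread between samples, neighbours in this order that differ by less than the control groups do, such as *SEPTIN11* and *SEPTIN1* in RS4;11 at 44.9 and 45.4, were not told apart.

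*SEPTIN8*, *SEPTIN1* and *SEPTIN5* differed most between the lines. *SEPTIN8*, of the *SEPTIN6* subgroup, had scaled levels per kilobase of 15.8, 19.3 and 1.62 in the DMSO groups, and without the length its highest line was 12.4-fold above its lowest. With the scrambled shRNA groups in place of DMSO that fold was 18.9. *SEPTIN1*, a septin of blood cells with high levels in lymphocytes, had 8.65, 45.4 and 26.4 per kilobase in the DMSO groups. *SEPTIN5*, best known from neurons and platelets where it touches on vesicle release, had 10.8, 34.1 and 23.4. Both were lowest in NALM-6 and highest in RS4;11, and their highest-to-lowest fold in scaled level was 5.25 and 3.18 with DMSO and 3.1 and 5.12 with scrambled shRNA. *SEPTIN11* spanned 3.12-fold, *SEPTIN6* 1.96-fold, *SEPTIN7* 1.91-fold, *SEPTIN2* 1.8-fold and *SEPTIN9* 1.27-fold in the DMSO groups.

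**Figure D1:**
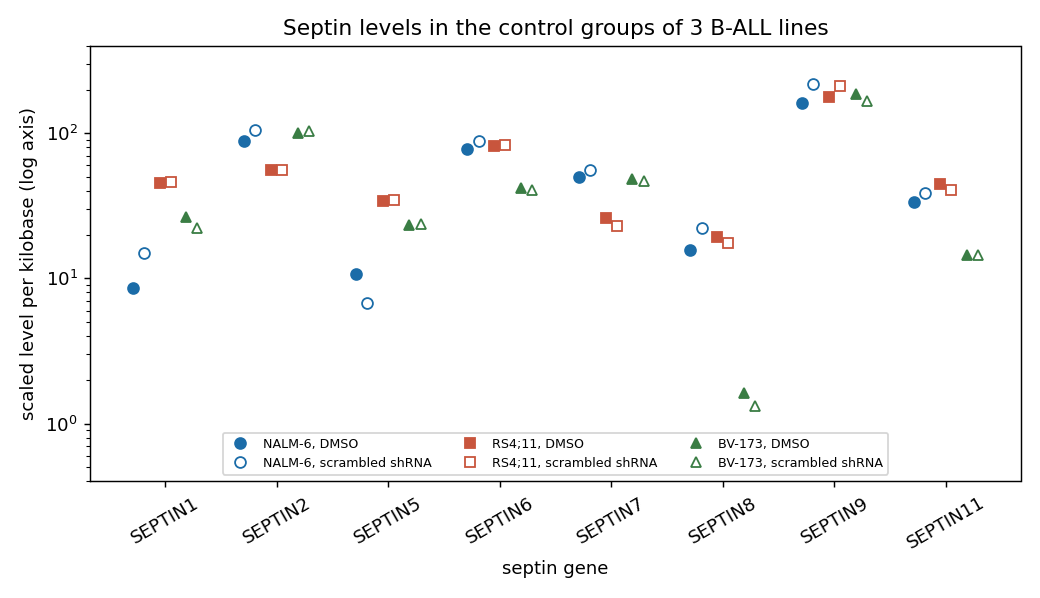
Level of 8 septins in the control groups, as the scaled level (group sum of 1000000) per kilobase of transcript, on a log axis. Filled symbols are DMSO and open symbols scrambled shRNA, with 1 value per group and no error bars because the tables pool the samples. *SEPTIN9* tops every line at 161 to 218, and *SEPTIN8* in BV-173 lies lowest at 1.33 and 1.62.

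The DMSO and scrambled shRNA groups of a line received neither *CCND3* shRNA nor palbociclib, and their gap gives a scale on which to read the ratios, although it mixes vector, sorting, time and table and is no replicate error. Over the 24 pairs of septin and line the median absolute gap was 0.18 on the log2 scale of the scaled levels. The 2 pairs with a gap of at least 1.5-fold were both in NALM-6. *SEPTIN1* there had a scaled level of 13.9 with DMSO and 24 with scrambled shRNA, and *SEPTIN5* had 23.4 and 14.7. Among all genes 26.9%, 18.9% and 21% in the 3 lines had a gap of that size. The absolute knockdown ratio was larger than the gap in 19 of the 24 pairs, and the palbociclib ratio in 17. Some exceeded it barely, such as the knockdown ratios of *SEPTIN2* in RS4;11 (−0.01 against 0.01) and *SEPTIN8* in NALM-6 (−0.43 against 0.41). The ratios are of deposited levels, and each shares a control group with the gap. The same counts are not given for all genes, so nothing about septins is read from them.

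After *CCND3* knockdown 3 of the 24 pairs were called lower and 2 higher. In NALM-6 1 of 8 members was called lower, against a background of 8.47% of all genes, and 1 higher, against 7.82%. In RS4;11 2 members were called lower, against 9.72%, and 1 higher, against 9.73%. In BV-173 no member was called, against 4.78% of all genes lower and 3.32% higher. The median log2 ratio of the 8 members was −0.36, −0.29 and −0.14, and that of all genes 0.01, 0.01 and −0.01. Of the 8 members 6, 6 and 5 had a ratio below 0.

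With palbociclib 5 of 26 pairs were called lower and 2 higher. In NALM-6 2 of 9 listed members were called lower, against 14.9% of all genes, and none was called higher, against 21.4%. In RS4;11 2 of 9 were called lower, against 15%, and 2 higher, against 16.7%. In BV-173 1 of 8 was called lower, against 11.9%, and none higher, against 13.6%. With so few members, chosen with these ratios known, nothing is read from these counts about the family as a whole. What follows is given by member.

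**Figure D2:**
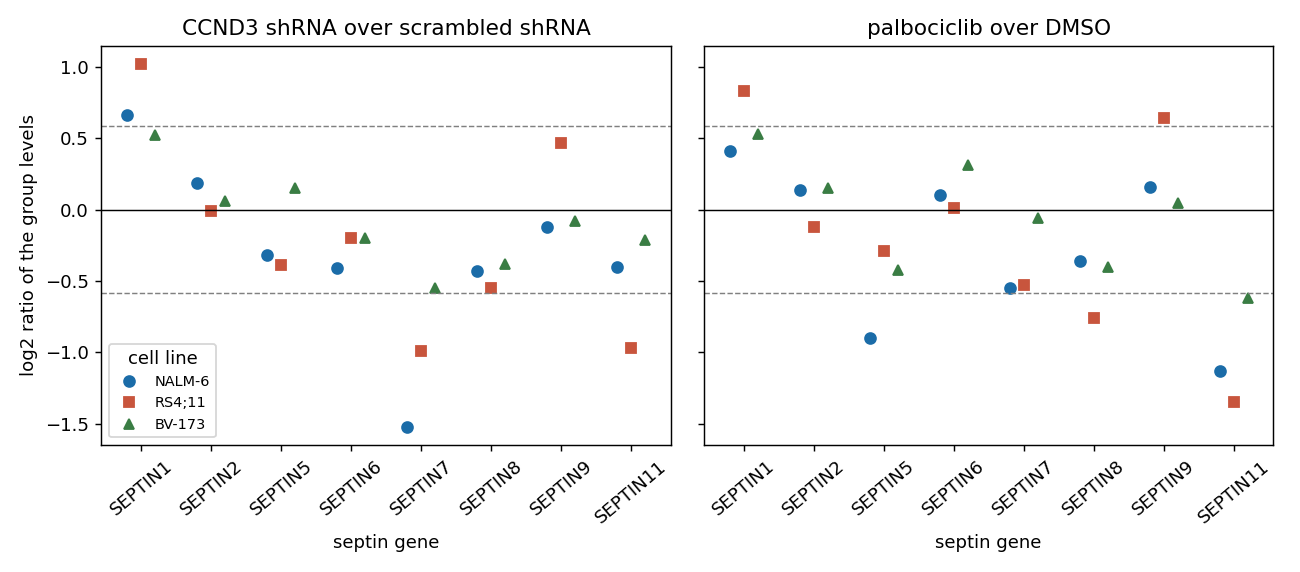
Log2 ratio of the treated over the control level for 8 septins, on the left with *CCND3* shRNA and on the right with palbociclib, 1 symbol per cell line. Dashed lines mark 1.5-fold. *SEPTIN7* lies lowest on the left, at −1.52 in NALM-6, and *SEPTIN11* lowest on the right, at −1.35 in RS4;11, while *SEPTIN1* is above 0 in all 6 comparisons.

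*SEPTIN7*, on chromosome 7 from 35800986 to 35915763 in GRCh38.p14, encodes the septin on which every standard complex depends. With knockdown its level went from 4515 to 1576 in NALM-6, from 1899 to 957 in RS4;11 and from 3980 to 2727 in BV-173. The level of the knockdown group was the lower one in all 3 lines, and the BV-173 knockdown group still stood above the RS4;11 control. *SEPTIN7* thus fell to 34.9% of control in NALM-6 and 50.4% in RS4;11, with log2 ratios of −1.52 and −0.99. The BV-173 ratio of −0.55, 68.5% of control, did not reach the called size, but as scaled levels it was −0.65, which did. Against the DMSO group of the same line, an alternative added after the values were seen, the 3 ratios were −1.32, −1.22 and −0.68, all of the called size. These are ratios of scaled levels. In BV-173 the gap between the control groups was 0.03, so the other control added little to the −0.65. A lower knockdown ratio was held by 0.331%, 3.95% and 5.91% of all genes.

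With palbociclib the *SEPTIN7* level was 2906 against 4259 in NALM-6, 1573 against 2268 in RS4;11 and 3899 against 4056 in BV-173. These log2 ratios of −0.55, −0.53 and −0.06 were not called in any line. The NALM-6 ratio lay close to the call, and other settings moved it both ways. It passed the call at −0.60 against the scrambled shRNA group, on scaled levels, and at −0.61 once centred on the median of all genes. As scaled levels per kilobase against its own control, 50 with DMSO and 37.3 with palbociclib, the drop was smaller and not called. Of all genes 16.3%, 16.7% and 42% had a lower palbociclib ratio in these lines. The mean over the 3 lines was −1.02 ± 0.49 (SD) with knockdown and −0.38 ± 0.28 with palbociclib. The knockdown ratio was the lower one in each line, by −0.97, −0.46 and −0.49, a mean difference of −0.64 ± 0.28.

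RefSeq annotates 15 *SEPTIN7* pseudogenes, none of which is listed in a table. Whether reads from them were assigned to *SEPTIN7* is not given in the sources used here, so its absolute level is uncertain to that extent. In bulk RNA a lower level cannot be told apart into fewer cells with the transcript and less transcript per cell.

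*SEPTIN11*, on chromosome 4 from 76949752 to 77040154, is a member of the *SEPTIN6* subgroup and can take the place of *SEPTIN6* beside *SEPTIN7*. With palbociclib it went from 3686 to 1688 in NALM-6, from 4989 to 1956 in RS4;11 and from 1559 to 1017 in BV-173. It fell in all 3 lines, with log2 ratios of −1.13, −1.35 and −0.62, or 45.8%, 39.2% and 65.2% of the DMSO level. A call lower in all 3 lines was made for 6.16% of the 13307 genes listed in every table, and *SEPTIN11* was the one septin among them.

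With knockdown *SEPTIN11* was at 3011 against 3984 in NALM-6, at 2226 against 4363 in RS4;11 and at 1370 against 1581 in BV-173. It fell in RS4;11, where the log2 ratio was −0.97, and stood at −0.40 and −0.21 in the other lines. The mean was −1.03 ± 0.38 (SD over 3 lines) with palbociclib and −0.53 ± 0.40 with knockdown. Without RS4;11 the knockdown mean was −0.30. The knockdown ratio was the higher one in each line, by 0.72, 0.38 and 0.41, which is the opposite order to *SEPTIN7*. In RS4;11 both septins were called lower with knockdown, at −0.97 for *SEPTIN11* and −0.99 for *SEPTIN7*.

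*SEPTIN1*, on chromosome 16 from 30378135 to 30382815, was the septin with the highest mean ratio under both treatments. With knockdown it went from 439 to 692 in NALM-6, from 1414 to 2858 in RS4;11 and from 695 to 994 in BV-173. It rose in NALM-6 and RS4;11, by log2 ratios of 0.66 and 1.02, and had 0.52 in BV-173. With palbociclib the levels were 360 against 271, 2568 against 1446 and 1181 against 819, and *SEPTIN1* rose in RS4;11 with a log2 ratio of 0.83, beside 0.41 in NALM-6 and 0.53 in BV-173. The treated level was the higher one in all 6 comparisons. The means of 0.73 ± 0.26 and 0.59 ± 0.22 (SD over 3 lines) differed by 0.14 ± 0.13. In NALM-6 both ratios were smaller than the gap of 0.79 between the control groups, while in RS4;11 that gap was 0.02. Against the scrambled shRNA group the BV-173 palbociclib ratio was 0.71, of the called size.

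**Figure D3:**
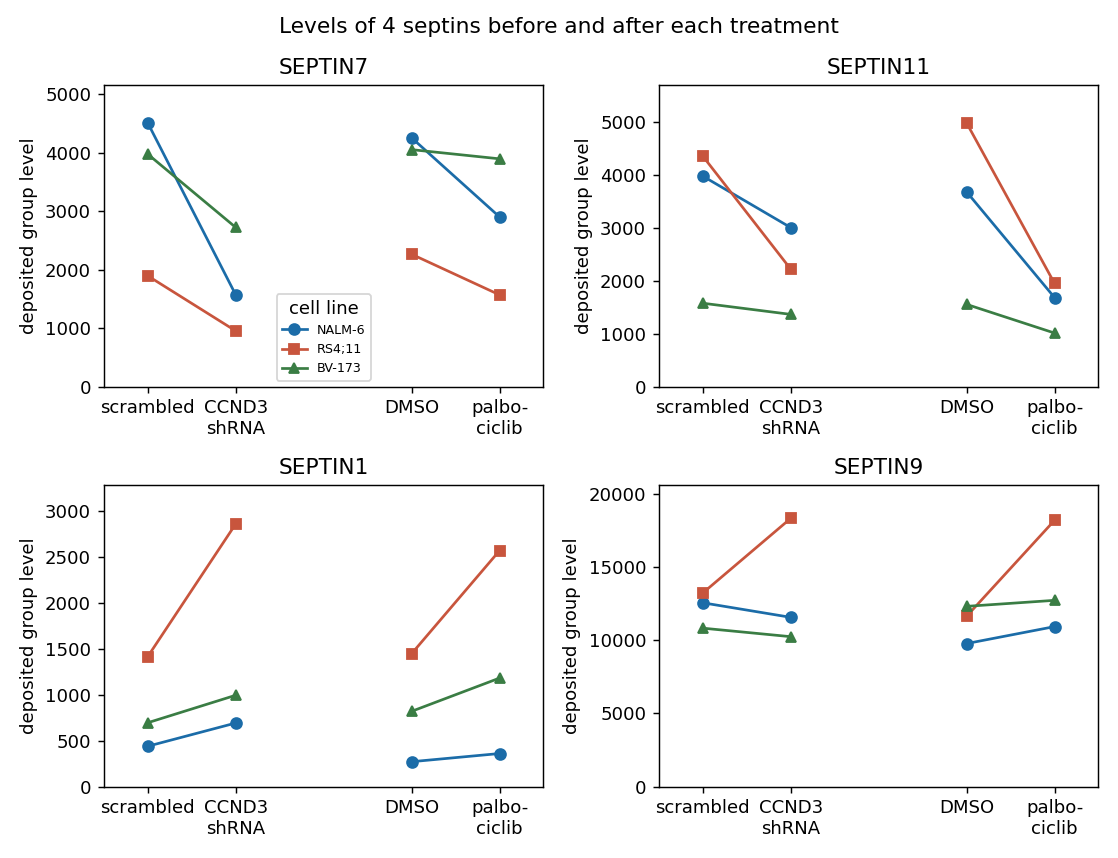
Deposited group levels of *SEPTIN7*, *SEPTIN11*, *SEPTIN1* and *SEPTIN9* with each treatment and its control, 1 line per cell line and an axis from 0. *SEPTIN7* in NALM-6 drops from 4515 to 1576 with *CCND3* shRNA, *SEPTIN11* in RS4;11 from 4989 to 1956 with palbociclib, and *SEPTIN9* in RS4;11 stands at 18319 and 18188 in the treated groups.

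*SEPTIN9*, on chromosome 17 from 77281499 to 77500596, differed from its controls mainly in RS4;11. Its level there was 18188 with palbociclib against 11631 with DMSO, so it rose by a log2 ratio of 0.64. With knockdown it was 18319 against 13218, a ratio of 0.47 that was not called. Against the other control group these were 0.39 with palbociclib and 0.68 with knockdown, so which of them is called depends on the control. In NALM-6 the ratios were −0.12 with knockdown and 0.16 with palbociclib, and in BV-173 −0.08 and 0.05. All 4 of these were smaller than the gap between the control groups, which was 0.45 for the first line and 0.19 for the second.

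*SEPTIN8*, on chromosome 5 from 132750819 to 132780083, had ratios below 0 in all 6 comparisons. With knockdown the levels were 1200 against 1613 in NALM-6, 793 against 1158 in RS4;11 and 69 against 90.1 in BV-173, or −0.43, −0.55 and −0.38 on the log2 scale. With palbociclib it fell in RS4;11, from 1418 to 838 or −0.76, and had −0.36 in NALM-6 and −0.40 in BV-173. Against the other control group the RS4;11 palbociclib ratio was −0.53, short of a call, while 3 others reached one, at −0.81 in RS4;11 and −0.80 in BV-173 with knockdown and −0.63 in NALM-6 with palbociclib. The means were −0.45 ± 0.08 and −0.51 ± 0.22 (SD over 3 lines), a difference of 0.05 ± 0.15.

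*SEPTIN5*, on chromosome 22 from 19714503 to 19723319, fell with palbociclib in NALM-6, from 455 to 244 or −0.90 on the log2 scale. That call depends on its control, since against the scrambled shRNA group the ratio was −0.10. The reverse holds for knockdown in NALM-6, where the ratio was −0.32 against scrambled shRNA and −0.97 against DMSO. Its other palbociclib ratios were −0.29 in RS4;11 and −0.42 in BV-173, and its knockdown ratios −0.32, −0.39 and 0.15. *SEPTIN5* is followed on its strand by *GP1BB*, and readthrough transcripts join the pair, so its level may hold reads of its neighbour.

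*SEPTIN6*, on chromosome X from 119615724 to 119693168, was called in no comparison. Its log2 ratios were −0.41, −0.20 and −0.20 with knockdown and 0.10, 0.01 and 0.31 with palbociclib. The knockdown ratio was the lower one in each line, with a mean difference of −0.40 ± 0.17 (SD over 3 lines). *SEPTIN2*, on chromosome 2 from 241315355 to 241354027, varied least, with ratios from −0.12 to 0.19. *SEPTIN10* is also of the *SEPTIN6* subgroup and lies on chromosome 2. It was listed at 0.157 and 0.182 with DMSO and palbociclib in NALM-6 and at 0.174 and 0.15 in RS4;11, levels too low to compare.

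Septins outside the rule that were listed in a table were *SEPTIN3*, *SEPTIN4*, *SEPTIN12* and *SEPTIN14*, which are known mainly from brain and testis. None exceeded a level of 52.7 in any group, so their ratios rest on low levels. *SEPTIN4*, listed in NALM-6 and RS4;11, had log2 ratios of −0.72 and −0.82 with knockdown, both called lower. With palbociclib it had −0.38 and −0.27, neither of them called. *SEPTIN14* had −0.23, −0.66 and −0.71 with knockdown and −1.05, −0.05 and −0.17 with palbociclib. *SEPTIN12* was called in no comparison. *SEPTIN3* went from 34.7 to 17.3 with knockdown in RS4;11 and had log2 ratios of −0.35 and −0.61 in the other lines, and its palbociclib ratios of −1.04, −0.23 and 0.43 went both ways.

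Per kilobase, these values give the make-up of the septin transcripts in each group, with the low septins included. *SEPTIN7* made up 10.2% of the summed septin level with scrambled shRNA and 4.06% with *CCND3* shRNA in NALM-6. The same share was 4.45% and 1.96% in RS4;11 and 11.1% and 7.91% in BV-173. With DMSO and palbociclib it was 11.1% and 7.72% in NALM-6, 5.38% and 3.19% in RS4;11 and 10.8% and 9.83% in BV-173. The share of *SEPTIN7* was thus lower in the treated group of every pair, and RS4;11 had the lowest share of the lines in every group.

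Within the *SEPTIN6* subgroup the treatments differed. *SEPTIN11* held 26.3% of the subgroup with DMSO and 13.8% with palbociclib in NALM-6, 30.7% and 15.8% in RS4;11, and 24.7% and 15% in BV-173. With scrambled and *CCND3* shRNA its share was 26% and 26.1% in NALM-6, 29% and 19.9% in RS4;11, and 25.6% in both groups of BV-173. Within the *SEPTIN2* subgroup *SEPTIN1* in RS4;11 went from 33.7% to 53.1% with knockdown and from 33.5% to 50.3% with palbociclib. The summed septin scaled level per kilobase was 554 and 492, 512 and 572, and 421 and 379 in the 3 lines for scrambled and *CCND3* shRNA. For DMSO and palbociclib the sums were 449 and 483, 487 and 564, and 444 and 450.

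**Figure D4:**
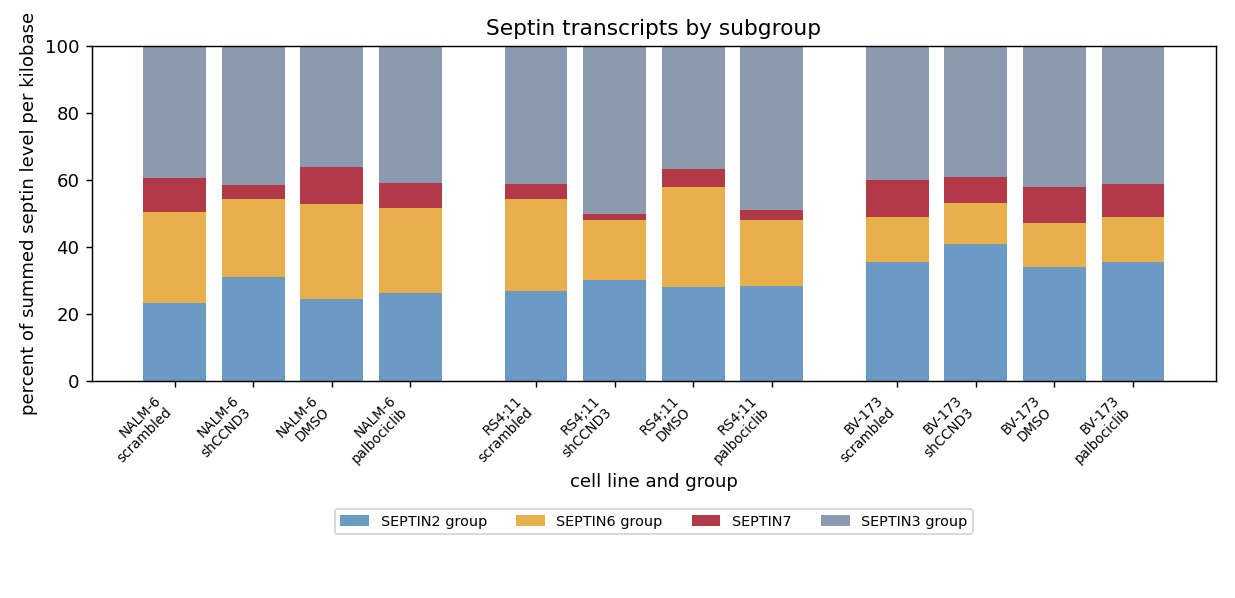
Share of each septin subgroup in the summed septin level per kilobase, in percent, for the 12 groups. *SEPTIN7*, in red, narrows from 10.2% to 4.06% with *CCND3* shRNA in NALM-6, and the *SEPTIN3* subgroup, almost all *SEPTIN9*, widens in RS4;11 from 41.2% to 50% with knockdown and from 36.6% to 49% with palbociclib.

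The genes whose 6 log2 ratios were closest to those of *SEPTIN7* were *GOLT1B*, *ANKRD44*, *ICMT*, *CDK8* and *SEC24D*, out of 8693 genes with a mean level of at least 100 in every table. Their Euclidean distances were 0.42, 0.50, 0.55, 0.58 and 0.60 on the log2 scale over the 6 comparisons. *GOLT1B*, a Golgi protein gene, had −1.38, −0.95 and −0.50 with knockdown and −0.72, −0.62 and −0.40 with palbociclib. *ICMT*, the methyltransferase that caps prenylated proteins, had −1.21, −1.36 and −0.35, then −0.48, −0.70 and −0.11. No other septin was near. *SEPTIN5* ranked at 1178, *SEPTIN11* at 1314 and *SEPTIN6* at 1530, while *SEPTIN2* ranked at 4788, *SEPTIN9* at 6093 and *SEPTIN1* at 8260. *SEPTIN8* was under the minimum level in BV-173.

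Promoter sequence from RefSeq on GRCh38.p14 was at hand for 7 of the 9 members, and not for *SEPTIN1* and *SEPTIN5*. Of the members *SEPTIN7* had the lowest mean ratio over lines with knockdown and *SEPTIN11* with palbociclib, while *SEPTIN2* varied least. The 250 bases before the first annotated start are shown for these 3. They are given 5′ to 3′ on the strand of the gene, which is the plus strand for all 3, at chr7:35800736-35800985, chr4:76949502-76949751 and chr2:241315105-241315354. Capitals mark a match to the E2F words named below.
SEPTIN7: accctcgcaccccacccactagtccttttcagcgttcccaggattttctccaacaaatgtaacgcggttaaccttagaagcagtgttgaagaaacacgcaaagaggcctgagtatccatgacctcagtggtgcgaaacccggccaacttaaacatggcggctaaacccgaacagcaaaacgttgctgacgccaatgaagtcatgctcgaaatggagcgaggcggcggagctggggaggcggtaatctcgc
SEPTIN11: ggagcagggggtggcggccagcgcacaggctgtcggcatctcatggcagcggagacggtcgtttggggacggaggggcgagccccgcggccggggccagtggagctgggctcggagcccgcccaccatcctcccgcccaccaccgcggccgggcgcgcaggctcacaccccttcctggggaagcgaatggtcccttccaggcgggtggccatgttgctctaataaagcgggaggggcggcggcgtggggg
SEPTIN2: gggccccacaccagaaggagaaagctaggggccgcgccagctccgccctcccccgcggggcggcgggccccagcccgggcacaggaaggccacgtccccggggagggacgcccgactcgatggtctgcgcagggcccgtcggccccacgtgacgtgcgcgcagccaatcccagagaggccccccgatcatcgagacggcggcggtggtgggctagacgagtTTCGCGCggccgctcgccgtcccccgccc

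Words of the factors that order transcription by cell cycle phase were searched on both strands of the 21 windows that the 7 genes have at their annotated starts. The E2F words TTCGCGC and TTGGCGC were found in 2 windows, 29 bases before the start of *SEPTIN2* and 87 bases before that of *SEPTIN10*, and in 4.24% of the 35116 windows of all genes. The CHR words TTTGAA and TTCGAA were in none of the 21 and in 14.3% of all windows. The FOXO word GTAAACA was in none of the 21 and in 2.98% of all. Many of the 21 windows belong to *SEPTIN9*, some overlap, and most hold more G and C than the median of all windows. Words rich in A and T are less likely in such windows, so no depletion in the family is read from these counts. The windows of *SEPTIN7* and *SEPTIN11* shown above hold none of these words, which says nothing about the factors themselves. The *SEPTIN7* window had 53.6% G and C, against 73.6% for *SEPTIN11*, 76.4% for *SEPTIN2* and a median of 58% over all windows.

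Septins work with other proteins, and 4 lists of such genes were read beside them. The first is the contractile ring and midzone machinery of cytokinesis, 15 genes with which septins share the cleavage furrow. With knockdown 14, 14 and 7 of the 15 were called lower, and with palbociclib 15, 14 and 14, while none was called higher. Of all genes 8.47%, 9.72% and 4.78% were called lower with knockdown and 14.9%, 15% and 11.9% with palbociclib. The shares of all genes called higher were 7.82%, 9.73% and 3.32%, then 21.4%, 16.7% and 13.6%. The list's median log2 ratio was −1.31, −1.63 and −0.57 with knockdown and −3.17, −5.29 and −1.76 with palbociclib. *ANLN*, the gene of anillin, which ties septins to the contractile ring, had a mean of −1.50 ± 0.63 (SD over 3 lines) with knockdown, and *CIT*, citron kinase, had −1.46 ± 0.57. *KIF20A*, a midzone kinesin, had −4.28 ± 2.77 and *AURKB*, the kinase of the chromosomal passenger complex, −3.89 ± 2.13 with palbociclib. The gene outside the calls was *RHOA*, the GTPase that starts the furrow, with means of −0.19 ± 0.36 and −0.39 ± 0.38, which was called lower in NALM-6 with palbociclib only. In BV-173 with knockdown 7 further genes were also not called.

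Set side by side, the knockdown median of these ring genes and the *SEPTIN7* ratio were −1.31 and −1.52 in NALM-6, −1.63 and −0.99 in RS4;11 and −0.57 and −0.55 in BV-173. With palbociclib the pairs of values were −3.17 and −0.55, −5.29 and −0.53, and −1.76 and −0.06, so that *SEPTIN7* lay far above the ring median in each line. Among the septins *SEPTIN11* had the lowest palbociclib ratio in each line, at −1.13, −1.35 and −0.62, all above the ring medians.

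The second list is *CDC42*, a GTPase, with the *CDC42EP* genes, whose products bind septins and shape their fibers. Of its 6 genes none, 1 and none were called lower and 1, 1 and 1 higher with knockdown. With palbociclib 2, 1 and 3 were called lower and 2, 1 and 1 higher. The shares of all genes with knockdown were 8.47%, 9.72% and 4.78% lower and 7.82%, 9.73% and 3.32% higher. With palbociclib they were 14.9%, 15% and 11.9% lower and 21.4%, 16.7% and 13.6% higher. With only 6 genes, nothing particular to the list is read from its counts. *CDC42EP4* was called lower and *CDC42EP2* higher in all 3 lines with palbociclib, at means of −1.72 ± 0.97 and 1.07 ± 0.25 (SD over 3 lines), beside −0.58 ± 0.28 and 0.26 ± 0.25 with knockdown. Over the 13307 genes common to the tables, 6.16% were called lower and 4.66% higher in all 3 lines with palbociclib. *CDC42EP4* in RS4;11 rests on low levels, 12.9 with DMSO and 2.35 with palbociclib. *CDC42EP1* had 0.56 ± 0.43 with knockdown and 0.77 ± 1.64 with palbociclib. With palbociclib it was called higher at 2.52 in NALM-6 and lower at −0.73 in BV-173. These calls rest on low levels too, 4.62 with DMSO and 26.4 with palbociclib in NALM-6, and 5.37 and 3.23 in BV-173. Over all groups its level was 2.43 to 33.

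Of 15 cortical actin and myosin II genes 3, 2 and 0 were called lower with knockdown and 3, 3 and 3 with palbociclib. No gene of the list was called higher with knockdown, and 0, 1 and 2 were with palbociclib. The shares of all genes called lower were 8.47%, 9.72% and 4.78% with knockdown and 14.9%, 15% and 11.9% with palbociclib. Those called higher were 7.82%, 9.73% and 3.32% with knockdown and 21.4%, 16.7% and 13.6% with palbociclib. Nothing particular to the list is read from its counts. *DIAPH3*, a formin that nucleates actin for the ring, had −1.37 ± 0.84 and −4.15 ± 1.73, and *MYH10*, a non-muscle myosin heavy chain, −0.49 ± 0.14 and −0.79 ± 0.30 with knockdown and palbociclib. *ROCK1*, a kinase that activates myosin II, had −0.63 ± 0.26 with knockdown and −0.13 ± 0.16 with palbociclib. The list's median stayed between −0.22 and 0.15 in the 6 comparisons.

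The last list is the ESCRT-III and abscission machinery, 12 genes whose products cut the bridge after the ring has closed, of which 11 were listed in the palbociclib table of RS4;11. With knockdown none was called lower and 1, 0 and 0 higher. With palbociclib 1, 0 and 1 were called lower and 0, 1 and 0 higher. The lower calls were of *CHMP4C* and rest on low levels. These were 0.892 with DMSO and 0.47 with palbociclib in NALM-6, and 6.32 and 3.98 in BV-173. Of all genes 8.47%, 9.72% and 4.78% were called lower and 7.82%, 9.73% and 3.32% higher with knockdown. With palbociclib the shares were 14.9%, 15% and 11.9% lower and 21.4%, 16.7% and 13.6% higher. Nothing particular to the list is read from its counts. The list medians lay between −0.08 and 0.07. *CHMP1B* had the highest means, 0.50 ± 0.33 with knockdown and 0.39 ± 0.38 with palbociclib.

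**Figure D5:**
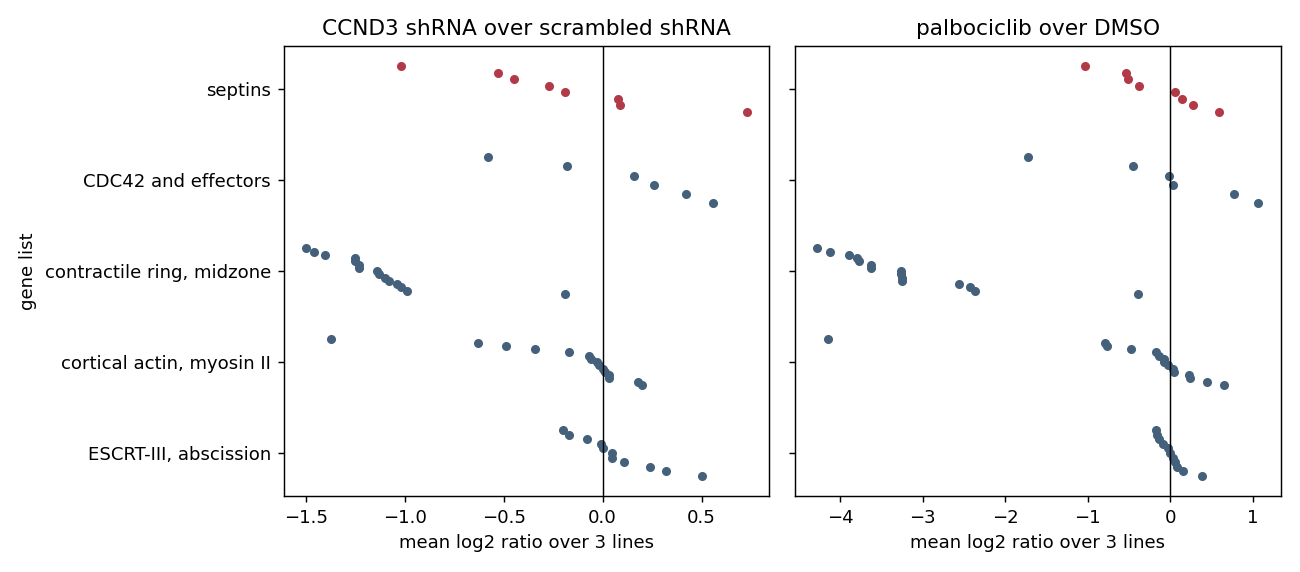
Mean log2 ratio over 3 lines, 1 point per gene, for 8 septins in red and 4 lists of genes that act with them, sorted within each list. The horizontal axes of the panels differ in range. Septins spread from −1.02 to 0.73 with *CCND3* shRNA and from −1.03 to 0.59 with palbociclib, and the contractile ring genes reach −1.50 and −4.28.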

How the data were processed

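RNA-seq was read from 34 samples in 12 groups, by cell line and treatment as labelled. Per the study's methods and the submitters' processing notes, the authors used SOAPnuke as read filter, Bowtie2 as aligner against hg38, RSEM for gene levels and DESeq2 for pairs of groups (versions are not given in the sources used here). The authors' deposited tables, 1 for each of 6 comparisons, hold a signal per gene and group (a normalized level that pools the samples), gene length, and columns of their own fold changes and p-values, which were not used. Pooled levels give neither a spread between samples nor a depth, so no interval or test was computed. The design allowed for counts per sample, which these tables do not hold.

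Log2 ratios of treated over control were taken within a table with no pseudocount and no filter on low values, and called at 1.5-fold. Tables were normalized separately, so levels across tables were scaled to a group sum of 1000000 and, between genes, per kilobase. Calls on simulated levels with known folds were checked. Python 3.11.15, numpy 2.4.6, pandas 2.3.3 and matplotlib 3.10.9 were used. The members and gene lists were chosen with earlier results of these data known. Named genes were every septin, *CCND3*, single markers and the 5 genes nearest to *SEPTIN7*. From the lists up to 4 genes per treatment with the largest absolute mean ratio were named, of which only some are described. *RHOA* was named as the exception in its list and *CHMP4C* for its low levels. *RHOA*, *CHMP4C*, *CD8A*, *EPCAM*, *COL3A1*, *PF4*, *NKG7*, *GP9* and *COL1A1* were named after their values were seen. Alternatives were the fold, scaling, centring, a pseudocount of 1, level filters of 10 and 100, the control group, and leaving out a line.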

Additional observations from a re-analysis of the deposited data

How the results depend on the processing

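No paired analysis was possible because the deposited levels pool the samples of each group, and for the same reason no single sample could be left out. Leaving out each cell line in turn took its place. At 2-fold the pairs of septin and line called lower with knockdown numbered 1 (3 at 1.5-fold), those called higher 1 (2), those lower with palbociclib 2 (5) and those higher 0 (2). At a lower threshold of 0.32 on the log2 scale the same counts were 10, 4, 10 and 4. The shares of all genes called at these thresholds are not given, so nothing about septins is read from these counts. With the control group of the other table, an alternative chosen after seeing the data and taken on scaled levels, 7 pairs were called lower with knockdown. The share of all genes called against that control is likewise not given. The mean knockdown ratio of *SEPTIN8* was −0.54 in place of −0.45. Of the 5 pairs called with knockdown 5 were called the same way against that control, and of the 7 called with palbociclib 4 were. The 3 lost were *SEPTIN5* in NALM-6 (−0.10) and *SEPTIN8* (−0.53) and *SEPTIN9* (0.39) in RS4;11. Called only against that control were 5 pairs with knockdown, *SEPTIN5* in NALM-6 (−0.97), *SEPTIN8* (−0.81) and *SEPTIN9* (0.68) in RS4;11, and *SEPTIN7* (−0.68) and *SEPTIN8* (−0.80) in BV-173, and 3 with palbociclib, *SEPTIN7* (−0.60) and *SEPTIN8* (−0.63) in NALM-6 and *SEPTIN1* (0.71) in BV-173. Scaling to the group sum added a call for *SEPTIN7* with knockdown in BV-173 (−0.65), and centring on the median added one for *SEPTIN7* with palbociclib in NALM-6 (−0.61). With scrambled shRNA in place of DMSO the log2 of the highest over the lowest line was 2.36 for *SEPTIN5* (1.67 with DMSO), 1.31 for *SEPTIN7* (0.93) and 4.24 for *SEPTIN8* (3.63). Over genes with a level of at least 100 the share called higher with palbociclib in NALM-6 was 13.8% in place of 21.4%. Over all these alternatives a value was counted as unmoved if it stayed within the spread over lines or within 1.5 times. This held for 111 of 112 values of mean ratios, 48 of 48 of mean differences and 13 of 16 of the spread over lines. It also held for 35 of 36 of the background shares and 15 of 24 of the counts of pairs. No direction of a called value turned. Leaving out 1 of 3 lines cannot move a mean beyond the SD over those lines. The counts for mean ratios and mean differences are therefore no measure of how stable they are. The knockdown mean of *SEPTIN7* ranged from −1.25 to −0.77 when 1 line was left out. The cause of these shifts was not tested. With 1 pooled value per group, depth and replicate error behind each ratio are unknown, and the gap between the control groups does not replace them.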
